A study of Mus musculus with 1790 samples.

Results

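The 47 neurogliaform cells (NGCs) described here were collected 1 at a time, by suction into the recording pipette after a whole-cell recording in a slice of mouse somatosensory cortex. They make up 47 of the 1790 samples of the series. They were set against 69 NGCs of the same genotype that were dissociated with papain and sorted at P15, and then against 111 such cells sorted at P30. The sorted cells taken were all tdTOM+/GFP+ cells labelled "Lamp5 Plch2 Dock5" (Dock5+NGCs) or "Lamp5 Lsp1" (Lsp1+NGCs). This gave 20 Dock5+NGCs and 27 Lsp1+NGCs among the patched cells, 36 and 33 at P15, and 76 and 35 at P30. All cells of the 3 collections carried Htr3a-GFP and Hmx3-Cre with R26tdTOM, so that tdTOM marked cells whose lineage had expressed Hmx3 and GFP marked expression from the Htr3a transgene. None of the mice received a treatment. The comparison asks which messengers follow the way in which a cell was collected.

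NGCs are GABAergic interneurons that release GABA, neuropeptide Y and reelin around dense axonal arbors, largely in the upper layers of the cortex. A patch pipette passes through neuropil, where processes of astrocytes, oligodendrocytes, microglia and pyramidal cells lie against the recorded soma, and draws out the contents of the soma in place. Enzymatic dissociation tears off most axons and dendrites and is known to induce early response and heat shock genes in brain cells.

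The collections differed in more than the pipette, and these differences cannot be told apart here. The patched cells came from mice of P14 to P25, most often P16 (11 cells), P17 (9 cells) and P18 (9 cells), and from all cortical layers, whereas the sorted cells came from the microdissected upper layers of pooled brains. Patched RNA was put into the lysis buffer of a SMART-Seq V4 3' DE kit according to the labels, and the sorted cells were captured and amplified on a C1 fluidic chip. The methods describe a barcode for each molecule in the sorted libraries and call the sequencing of the patched cells identical. The subtype labels were assigned by the authors from the same expression values, so identity genes are no independent check of them. No label names the mouse of a cell, so each collection counts as 1 sample and no test across cells was made.

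A level below is the mean over cells of counts per cell scaled to the same total, in CPM, taken over the gene rows that both tables hold, 17465 for either comparison. A fold is the log2 ratio of 2 such means after adding 10 CPM to each, which understates the difference of low genes. Over the 11979 rows of all 3 tables, the patched cells held 28859 to 11306957 counts (median 446333), the P15 cells 87892 to 990726 (median 243292) and the P30 cells 62099 to 821719 (median 175321). Over all rows of each collection, the highest count of 1 gene in 1 cell was 2136463 in the patched cells, 13606 at P15 and 12923 at P30. These rows are unlike, as 37 are mitochondrial in the patched cells, 0 at P15 and 19 at P30. Every cell was also thinned to 60000 counts over the rows of all 3 tables, a step that 3 patched cells were too shallow for. The median number of genes detected was then 4490 in the patched cells (2032 to 8068), 3705 at P15 (2283 to 5104) and 2923 at P30 (1737 to 4784). Mitochondrial counts made up 0.124% to 19.9% of a patched cell (median 1.15%) and 1.71% to 19.9% of a P30 cell (median 8.28%), and the P15 table holds no mitochondrial row.

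Of 9222 genes at 10 CPM or more in either collection, 263 (2.85%) were 4-fold or more higher in the patched than in the P15 cells, and 362 (3.93%) were 4-fold or more lower. Against the P30 cells, 335 of 10325 genes (3.24%) were higher and 503 (4.87%) lower by the same rule. The P30 and P15 sorted cells were both dissociated with papain and sorted, at different ages and with a longer papain bath at P30. They were closer to each other. There 12 of 8931 genes (0.134%) were 4-fold or more higher at P30 and 14 (0.157%) lower. At a limit of 2-fold, the shares higher and lower were 18.9% and 21.1% for patched over P15, 19.7% and 23.8% for patched over P30, and 6.46% and 5.13% for P30 over P15. Within subsets of the cells more genes lay apart between P30 and P15 than the 26 above, as 176 genes lay 4-fold apart with plate rows 1 to 20 alone, 165 with rows 21 to 40 alone, 103 with Dock5+NGCs alone and 247 with Lsp1+NGCs alone, and the cause was not tested. The share of higher genes among all called genes was 42.1% against P15 and 40% against P30, but 73.4% and 88.9% when the mean of log2 CPM was compared, and 78.8% and 91% with the median CPM. All comparisons with the patched cells share those 47 cells, so the P15 and P30 values are given side by side.

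Many of the genes highest in the patched cells over both sorted collections were glial. Mbp, a major myelin protein (GRCm38 chromosome 18, 82475146 to 82585637), had a median of 117 CPM and a highest of 5559 CPM in the patched cells, and was counted in 44 of them. It was counted in 12 P15 cells and 10 P30 cells, with log2 folds of 4.74 and 4.67. With the 8 patched cells of P20 to P25 alone the fold over P30 was 1.45, under 4-fold. With cells thinned to equal depth the share with a count remained far apart, at 81.8% of patched and 8.70% of P15 cells. In 12 patched cells Mbp lay above the highest P15 cell, which held 957 CPM.

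Apoe, the lipid carrier made mainly by astrocytes in the brain (chromosome 7, 19696109 to 19699188), was counted in 46 of 47 patched cells, with a median of 237 CPM and a highest of 4981 CPM. It was counted in 9 of 69 P15 cells and 4 of 111 P30 cells, and its log2 folds were 5.04 and 5.51. Aldoc, the aldolase of astrocytes, reached 3.89 and 4.88. The growth factor Ptn stood at 5.01 and 5.06, and Sparc, a matrix protein of glia and vessels, at 3.79 and 3.82, the latter under 4-fold with patched cells of P20 to P25 alone. These patched levels were spread unevenly over cells, and for Apoe 17 of 47 patched cells lay above the highest P15 cell, which held 643 CPM.

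Also among the 12 highest were genes whose expression is not confined to glia. Tmsb4x, an actin-sequestering peptide of many cell types (chromosome X, 167207093 to 167209315), was counted in all cells of both the patched and P15 collections, at 957, 4302 and 30296 CPM in the lowest, median and highest patched cell and at 2.25, 231 and 2146 CPM at P15. The groups overlapped in few cells, as 40 of 47 patched cells lay above every P15 cell. Ndufb4, a subunit of respiratory complex I, had a median of 283 CPM in the patched cells and 0 at P15, with a fold of 4.01. Mouse Ndufb4 has near-identical copies in the genome, so its counts are uncertain. The metallothioneins Mt1 and Mt2, which bind metals and are made by astrocytes and by stressed cells, reached 4.23 and 4.13 against P15 and 5.02 and 4.11 against P30.

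**Figure D1:**
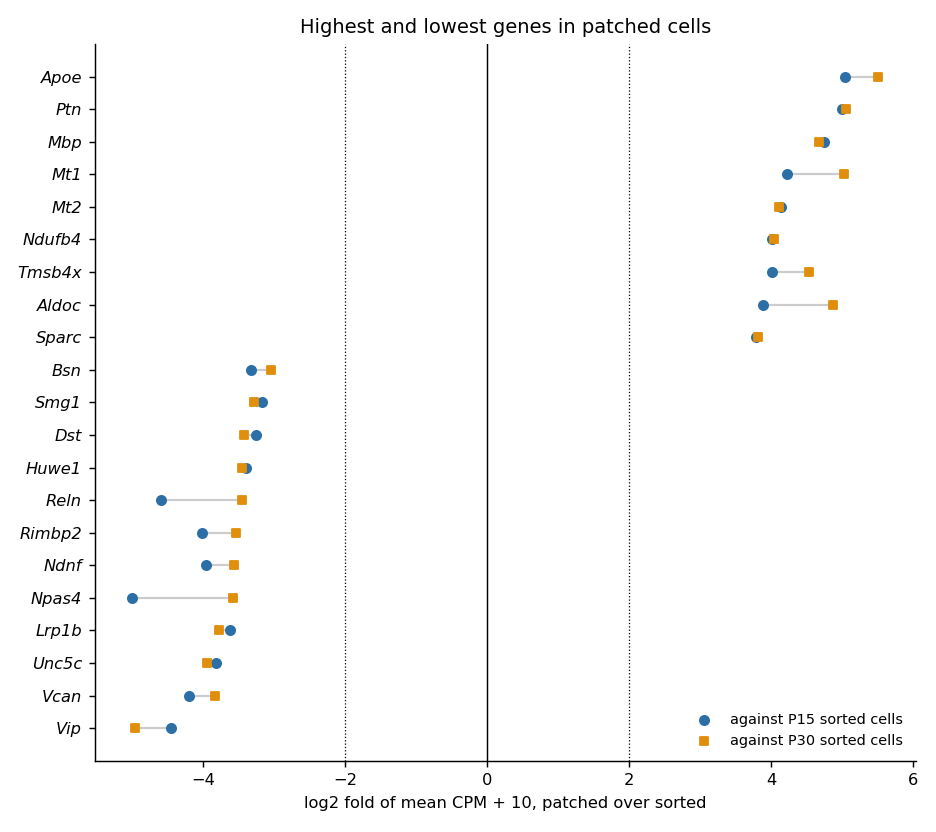
Log2 fold of mean CPM + 10 in the 47 patched cells over the 69 P15 (circles) and 111 P30 (squares) sorted cells, for 9 of the 12 genes highest and the 12 lowest over both, with dotted lines at 4-fold. Of the genes drawn, Apoe is the highest by its smaller fold, at 5.04 and 5.51, and Vip the lowest, at -4.46 and -4.96.

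The 12 genes lowest in the patched cells over both sorted collections included Reln and Ndnf, which mark NGCs. Reln, the extracellular matrix protein reelin (chromosome 5, 21884454 to 22344702), stood at 46.2, 7090 and 25411 CPM in the lowest, median and highest P15 cell and at 0, 119 and 2446 CPM in the patched cells. It was counted in 39 of 47 patched cells and in every sorted cell, with log2 folds of -4.59 and -3.46. Ndnf, a secreted protein of layer 1 interneurons (chromosome 6, 65671590 to 65712326), had a median of 39.0 CPM in the patched cells and 2253 CPM at P15 (-3.96 and -3.57). No patched cell reached the highest P15 cell of either gene, and 14 patched cells lay below the lowest P15 cell in Reln and 14 in Ndnf. Vcan, the proteoglycan versican, and Unc5c, a netrin receptor, were at -4.20 and -3.82 against P15 and at -3.83 and -3.95 against P30. The endocytic receptor Lrp1b (-3.63 and -3.77), the presynaptic scaffolds Rimbp2 (-4.03 and -3.54) and Bsn (-3.33 and -3.05), the cytoskeletal linker Dst (-3.26 and -3.43), the ubiquitin ligase Huwe1 (-3.40 and -3.46) and the RNA decay kinase Smg1 (-3.17 and -3.28) completed the group with Vip and Npas4.

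Not all identity genes were lower, as 5 of 21 tested against P15 had a fold above 0. Gad2 (GABA synthesis), Lamp5 and Npy were counted in every patched and every P15 cell, and Gad1, which has no P15 row, was counted in all 47 patched cells. The level of Gad2 was lower, with means of 1636 CPM in patched and 4357 CPM in P15 Dock5+NGCs, and of 2029 and 4465 CPM in Lsp1+NGCs. Lamp5 stood at 26.8, 1652 and 4941 CPM in the lowest, median and highest patched cell against 10.5, 851 and 3100.5 CPM at P15, a fold of 0.90. Npy, a neuropeptide of both subtypes, was nearly equal in Dock5+NGCs, with medians of 2839 CPM in patched and 2843 CPM in P15 cells, and stood at 12449 and 9018 CPM in Lsp1+NGCs. Slc32a1, which loads GABA into vesicles, was counted in 37 patched cells and every P15 cell, and the synaptic vesicle protein Sv2c in 35, with folds of -3.22 and -3.70. Against P30 the fold of Slc32a1 was -2.09, and leaving out any 1 of the patched series PSeq05, PSeq07, PSeq10 or PSeq11 took it under 4-fold. Of the subtype genes, Ndnf kept its order between the labels, with medians of 264 CPM in patched Dock5+NGCs and 10.6 CPM in patched Lsp1+NGCs against 4121 and 495 CPM at P15. Lsp1 itself was counted in 21 of 27 patched Lsp1+NGCs and in 6 of 33 at P15, whereas Dock5 was counted in 5 of 20 patched Dock5+NGCs and 16 of 36 at P15.

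Over the list of 23 NGC and GABAergic identity genes, 21 had a P15 row and passed the filter. None was 4-fold higher and 6 (28.6%) were 4-fold lower where 3.93% of all genes were (Reln, Ndnf, Slc32a1, Sv2c, Sp8 and Erbb4), with a median log2 fold of -1.24 against -0.03 over all genes. Against P30, 6 of 23 (26.1%) were lower where 4.87% of all genes were, with a median of -0.97 against -0.07 over all genes. The summed CPM of the list was 2243, 18857 and 54930 in the lowest, median and highest patched cell, and 18101, 31117 and 60897 at P15, and 21 patched cells lay below every P15 cell. The median transcript of the list was 4302 bases long, and genes of 4 to 6 kb had a median fold of -0.48.

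For the oligodendrocyte and microglia lists, most tested members had no count in any P15 cell (7 of 12 and 11 of 16). Such members entered the comparison through their patched level alone and could only be higher, and their folds depend on the 10 CPM added, so counts of cells are the plainer measure. Of 12 oligodendrocyte lineage genes that passed the filter, of 20 listed, 8 (66.7%) were 4-fold higher against P15, where 2.85% of all genes were. Mobp, another myelin gene, was counted in 36 of 47 patched cells and in 0 of 69 at P15. The myelin protein gene Mal was counted in 16 patched cells and the lineage transcription factor Olig1 in 24, and neither in any P15 cell. The summed CPM of the list was 6.28, 935 and 21822 in the lowest, median and highest patched cell. At P15, 41 of 69 cells were at 0 and the highest held 957, so that 22 patched cells lay above every P15 cell. Mog, the second defining marker, was counted in 10 patched cells and has no row in either sorted table. The median fold of the list was 2.73 against P15 and 2.78 over the 7 genes tested against P30. Of these 7, 4 (57.1%) were 4-fold higher, where 3.24% of all genes were, and 2 had no count in any cell of 1 of the 2 collections.

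Among 20 microglia and macrophage genes, 16 passed the filter against P15 and 11 (68.8%) were 4-fold higher, where 2.85% of all genes were, with a median of 2.26. Against P30 only 3 genes were tested, of which 2 were 4-fold higher, where 3.24% of all genes were. C1qb, a complement subunit, was counted in 22 of 47 patched cells, where the highest held 1192 CPM, and in no P15 cell. P2ry12, the purinergic receptor that marks resting microglia, was counted in 17 of 47 patched cells (36.2%, exact Clopper-Pearson 95% interval 22.7% to 51.5%) and in 0 of 69 P15 cells, which allows up to 5.21%. These bounds cover counting error within 1 collection each, and the P15 cells were the shallower. Its fold of 2.21 was under 4-fold without the series PSeq08 or PSeq11, without the highest cell, and in patched cells at 3% mitochondrial counts or less. Tyrobp and Fcer1g, both adaptors of microglial receptors, were counted in 19 and 20 patched cells and in 0 and 1 at P15. Cx3cr1 was counted in 11 patched cells and 1 P15 cell. Aif1, a calcium-binding protein of microglia with a row in all 3 tables, was counted in 22 patched cells, 1 P15 cell and 0 P30 cells, at folds of 3.28 and 3.09. The summed CPM was 0, 198 and 7756 in the lowest, median and highest patched cell, 8 patched and 57 P15 cells were at 0, and 24 patched cells lay above the highest P15 cell, which held 153. Over the 4 members with a P30 row, 9 patched cells lay above the highest P30 cell.

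The astrocyte list was less uniform. Of 19 tested genes, 6 (31.6%) were 4-fold higher against P15, where 2.85% of all genes were, among them Apoe, Aldoc, S100b, the glutamate transporter Slc1a3 and Mlc1, and none was lower. Of the 19, 6 had no count in any P15 cell, S100b and Mlc1 among them, and could only be higher. Other abundant members were close to level, with folds of -0.29 for the glutamate transporter Slc1a2, 0.21 for Sparcl1 and 1.06 for clusterin (Clu). Of the defining markers, the water channel Aqp4 was counted in 12 patched cells and the gap junction gene Gja1 in 19, and neither was counted in any P15 cell. The summed CPM was 1018, 2830 and 18284 in the patched and 35.7, 1679 and 5276 in the P15 cells, and 14 patched cells lay above every P15 cell.

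Red blood cell messenger was widespread among the patched cells. Hbb-bs, a beta globin (chromosome 7, 103826534 to 103828096), was counted in 41 of 47 patched cells, with a median of 254 CPM and a highest of 12845 CPM, and in 0 of 69 P15 cells. The 5 highest patched cells held 61.3% of it. Alas2, which starts haem synthesis in red cells, was counted in 9 patched and 0 P15 cells, and Bpgm, also made by other cells, was at 97.4 and 29.7 CPM. The alpha globin Hba-a1, with no row in either sorted table, was counted in 43 patched cells. Globin genes have near-identical copies, so counts of single copies are uncertain. Few endothelial and mural genes could be compared, as 4 of 20 listed members passed the filter against P15. None of the 4 was 4-fold apart, where 2.85% of all genes were higher and 3.93% lower, and at such shares 4 genes are too few to tell. They were Bsg (513 against 477 CPM), Rgs5 (5.10 against 17.3 CPM), Col1a1 (12.7 against 0.627 CPM) and Itm2a (11.2 against 1.33 CPM). Of the defining markers, Cldn5, which seals the vessel wall, was counted in 1 patched cell and Flt1 in 6, and no patched cell lay above the highest P15 cell in the list sum. The patched mean of that sum was 577 CPM, of which Bsg held 513 CPM. Against P30, 37 of 47 patched cells lay above the P30 median of the sum.

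Glutamatergic genes were also counted in patched cells. Slc17a7, the vesicular glutamate transporter of pyramidal cells, was counted in 24 of 47 patched cells, with a highest of 172 CPM, and in 0 of 111 P30 cells, and has no P15 row. The transcription factor Neurod2 was counted in 18 patched cells and in no sorted cell. Nrgn, a postsynaptic calmodulin-binding protein abundant in pyramidal dendrites, was counted in all 47 patched cells, at 28.0, 998 and 13654 CPM in the lowest, median and highest cell against 0, 114 and 751 CPM at P15, with folds of 3.50 and 3.91. Of 11 genes tested against P15, Nrgn alone (9.09%) was 4-fold higher, where 2.85% of all genes were. The guanine nucleotide exchange factor Rasgrf2 alone was 4-fold lower (-2.24 and -2.77), where 3.93% of all genes were. Of the 11, 4 had no count in any cell of 1 of the 2 collections. Camk2a, a kinase of excitatory synapses, and Cux2, which upper-layer neurons also use, had folds of -0.61 and -1.37. The list median was 1.08 against P15 and turned to -0.99 when only genes of 50 CPM or more were kept and to -1.27 with median CPM. In the list sum, 11 patched cells lay above every P15 cell.

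Counting a cell as marked when it lay above every P15 cell in the astrocyte, oligodendrocyte, microglia or red blood cell sum, 37 of the 47 patched cells were marked by at least 1 of the 4 lists. 14 cells were marked by exactly 1 list, 7 by 2, 13 by 3 and 3 by all 4. The astrocyte and microglia marks met in 13 cells and the oligodendrocyte and microglia marks in 17, whereas the astrocyte and red blood cell marks met in 4. In these libraries RNA of the recorded cell and RNA of its surroundings cannot be told apart.

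**Figure D2:**
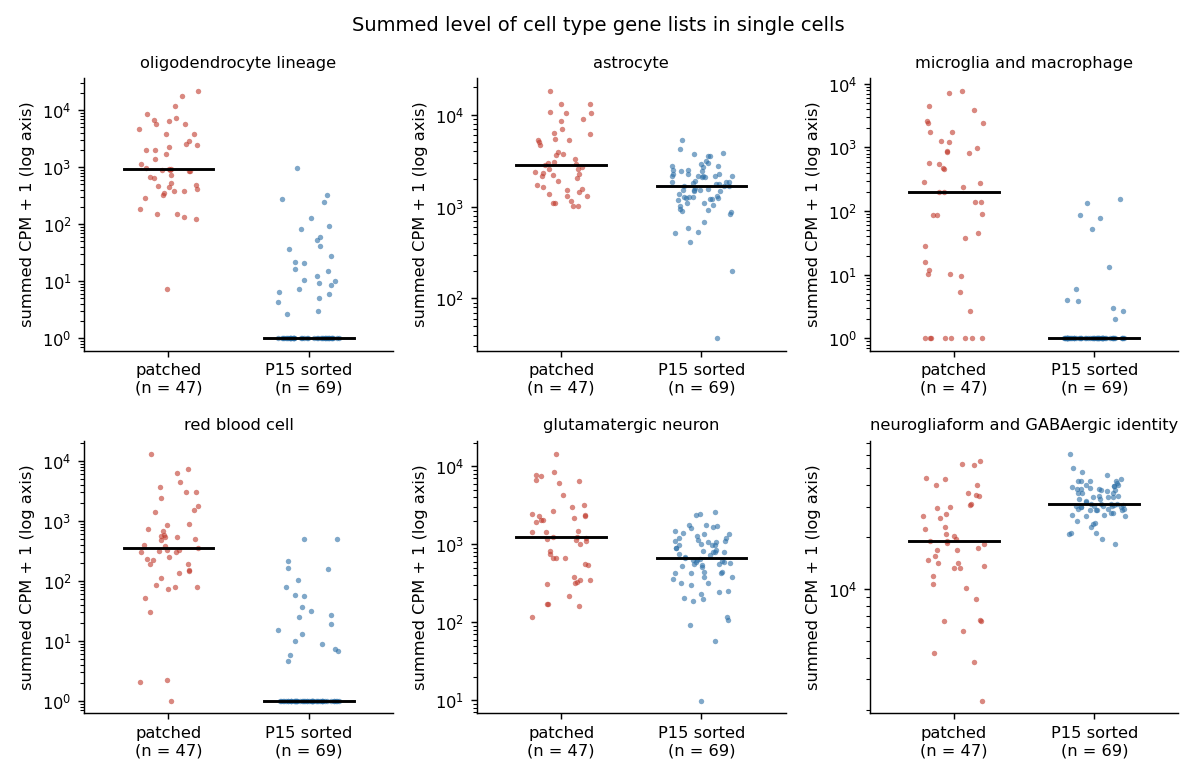
Summed CPM + 1 (log axis) of 6 gene lists in each of the 47 patched and 69 P15 sorted cells. Points are cells and bars are medians. Oligodendrocyte, microglia and red blood cell sums have medians of 935, 198 and 351 in the patched cells and 0 at P15, whereas the identity sum is lower, at 18857 against 31117.

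The patched cells differed among themselves along their mitochondrial share. Across the 47 cells, the Spearman correlation of this share was 0.71 with the astrocyte sum, 0.65 with the oligodendrocyte sum, 0.57 with the glutamatergic sum, 0.47 with the microglia sum and 0.71 with the ribosomal protein sum. It was -0.78 with the identity sum and 0.02 with the red blood cell sum. The values describe cells that share a collection, and list sums of 1 cell share its total, which holds no mitochondrial row here. In the 42 cells at 10% or less the values were 0.59 for the astrocyte, 0.60 for the oligodendrocyte and -0.70 for the identity sum. The 111 P30 sorted cells gave -0.22, -0.02 and -0.36 for the same lists and -0.52 for ribosomal protein genes. The 13 patched cells above 3%, a limit set after the values were seen, had a median identity sum of 6637 against 22529 in the other 34, and all 13 lay above every P15 cell in the oligodendrocyte and microglia sums, as did 9 and 11 of the other 34. The part of the mitochondrial share in the list differences was not tested. With those 13 cells left out, 247 genes were 4-fold higher and 503 lower against P15.

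**Figure D3:**
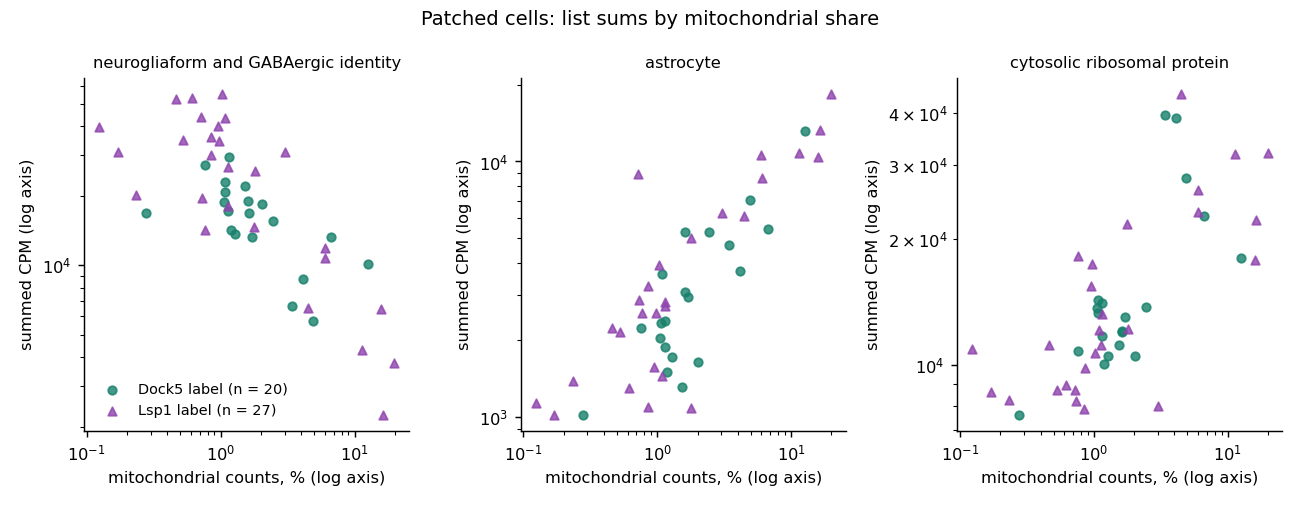
Summed CPM of 3 lists (log axis) against the percentage of mitochondrial counts (log axis) in the 47 patched cells, with circles for 20 Dock5+NGCs and triangles for 27 Lsp1+NGCs. The identity sum is lower and the astrocyte and ribosomal sums higher in cells with a larger share, with Spearman correlations of -0.78, 0.71 and 0.71.

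The glial sums are given by label, series and age as a description. The oligodendrocyte sum had a median of 913 in patched Dock5+NGCs and 970 in patched Lsp1+NGCs, and the microglia sum 86.7 and 278. Over the 8 patched series, of 4 to 9 cells each, the microglia median ran from 0 in PSeq03 to 2522 in PSeq08, and the oligodendrocyte median from 382 in PSeq06 to 4802 in PSeq08. By age the oligodendrocyte median was 1975 in 19 cells of P14 to P16, 1050 in 20 cells of P17 to P19 and 463 in 8 cells of P20 to P25, and the microglia median was 283, 364 and 5.51. The red blood cell sum had its highest median, 1462, in the 8 oldest cells, against 351 and 304 in the younger groups. Each series covered few ages, so age and series cannot be told apart.

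Genes of other interneuron classes lay on both sides. Vip, the peptide of a separate Htr3a class (chromosome 10, 5639218 to 5647617), was counted in every P15 and P30 sorted cell, at 8.50, 190 and 2162 CPM in the lowest, median and highest P15 cell. It was counted in 8 of 47 patched cells (17.0%, interval 7.65% to 30.8%), of which the highest held 99.0 CPM, and 42 patched cells lay below every P15 cell. The fold was -4.46 against P15 and -4.96 against P30. In the 42 tdTOM+ cells of the same P15 sort that carried other labels, Vip had a count in all 42 and a median of 5677 CPM. Tac2, the neurokinin B precursor, was counted in 7 patched, 63 of 69 P15 and 40 of those 42 other cells, and Crh, corticotropin-releasing hormone, in 5, 54 and 35. Sst, the peptide of a further class (chromosome 16, 23889573 to 23890958), showed the reverse order, with a count in 34 of 47 patched cells and a highest of 1626 CPM, against 1 of 69 P15 cells and 0 of the 42 other cells. Pvalb, the calcium buffer of fast-spiking basket cells, was counted in 26 patched and 4 P15 cells. The folds of Sst and Pvalb were 2.98 and 2.28, that of Pvalb being under 4-fold in patched cells at 3% mitochondrial counts or less, and the 5 highest patched cells held 73.9% of the Sst CPM. Cck, a peptide of further interneurons, was close to level, at 277 and 232 CPM. The part of other cells of the sort in the Vip, Tac2 and Crh values was not tested.

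**Figure D4:**
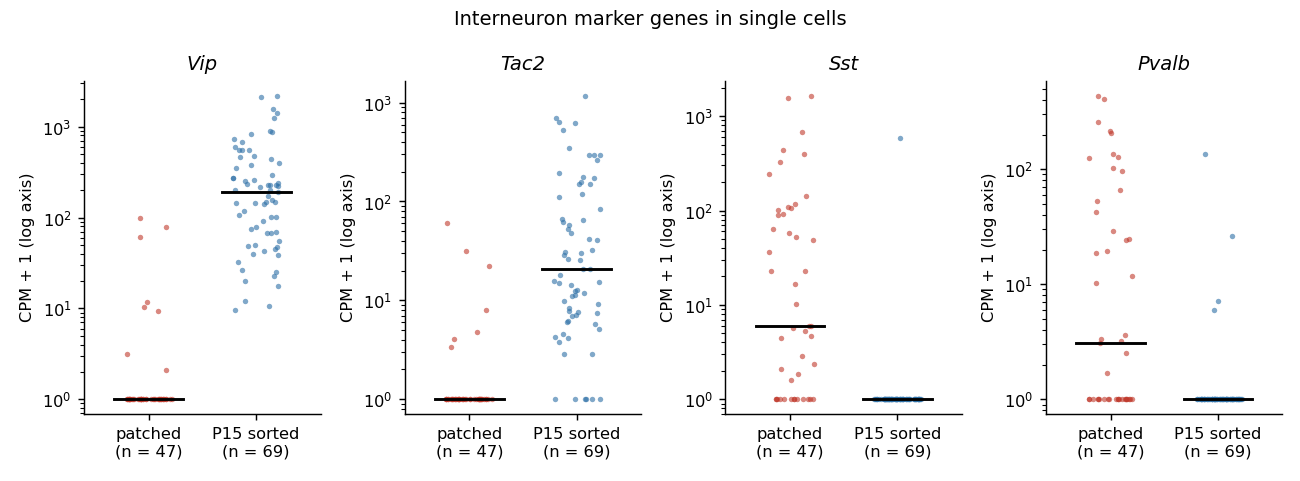
CPM + 1 (log axis) of Vip, Tac2, Sst and Pvalb in each of the 47 patched and 69 P15 sorted cells, with bars at the medians. Vip has a median of 190 CPM at P15 and 0 in the patched cells, where 8 cells hold a count, and Sst is counted in 34 patched cells and 1 P15 cell.

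Stress genes did not differ in 1 direction. None of 17 tested heat shock and chaperone genes was 4-fold apart against P15, where 2.85% of all genes were higher and 3.93% lower. At such shares 17 genes are too few to tell. The list median was 0.14 (-0.14 with counts summed over cells). The summed CPM was 3919, 7320 and 10919 in the lowest, median and highest patched cell and 1308, 7268 and 13040 at P15, so the collections overlapped almost wholly. Hsp90ab1, the most abundant member, stood at 1935 CPM in the patched and 2443 CPM in the P15 cells, the constitutive Hspa8 at 1306 and 623 CPM, Hsp90aa1 at 1007 and 1068 CPM, and Hsp90b1 of the endoplasmic reticulum at 464 and 605 CPM. Against P30, 15 of 21 tested members had a positive fold, the list median was 0.23, and 43 of 47 patched cells lay above the P30 median of the sum. Of those 21, 2 (9.52%) were 4-fold lower, where 4.87% of all genes were. They were the inducible Hspa1a (32.9 against 199 CPM) and Hspa1b (22.7 against 142 CPM), with folds of -2.29 and -2.22, and neither has a P15 row.

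Of 18 tested genes of the integrated stress response and cell death list, 3 (16.7%) were 4-fold higher against P15, where 2.85% of all genes were, and none was lower. These were Mt1, Mt2 and Xbp1, a transcription factor of the unfolded protein response that stood at 262 against 58.0 CPM, with a fold of 2.00 at the limit. The central factor Atf4 was at 194 CPM in the patched and 283 CPM in the P15 cells, and its targets Ddit3, Asns and Herpud1 had folds of 1.27, 1.11 and 1.43. Sqstm1, an autophagy receptor, was at 718 and 337 CPM, and the growth arrest gene Gadd45g at 384 and 371 CPM. The list median was 1.09, and 26 patched cells lay above every P15 cell in the sum. Against P30 the median was 1.29, and 7 patched cells lay above every P30 cell and 46 above the P30 median of the sum. The immediate early gene Fos stood at 1596 CPM in the patched and 1671 CPM in the P15 cells with a log2 fold of 1.37 over P30, and Egr1 and Dusp1 had folds of 0.13 and 0.79 against P15. Of 24 tested immediate early genes, none was 4-fold higher and 2 (8.33%) were lower against P15, where 2.85% and 3.93% of all genes were. The immediate early median was 0.20 against P15. Against P30, 5 (20.8%) were higher and 2 (8.33%) lower, where 3.24% and 4.87% of all genes were, with a median of 1.07. Those higher over P30 were Ier2 (3.18), Gadd45b (2.72), Junb (2.38), Jund (2.14) and Dusp1 (2.07), the last not without the series PSeq04, and all 47 patched cells lay above the P30 median of the list sum. Npas4, induced by neuronal activity, was counted in 9 of 47 patched and 67 of 69 P15 cells, with folds of -5.01 and -3.58, and Fosb was lower too (-3.13 and -2.39).

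Messengers of the nuclear-encoded respiratory chain were higher in the patched cells almost without exception. Of 83 tested genes, 82 had a positive fold against P15 and 20 (24.1%) were 4-fold higher, where 2.85% of all genes were, with a median of 1.47. Against P30, all 89 were positive and 39 (43.8%) were 4-fold higher, where 3.24% of all genes were, with a median of 1.86. The summed CPM was 42145, 59440 and 98693 in the lowest, median and highest patched cell and 5718, 14534 and 46519 at P15, and 42 of 47 patched cells lay above every P15 cell and 10 above every P30 cell. Ndufa4 was the most abundant, at 4146 against 945 CPM, followed by Cox6a1 at 2008 against 296 CPM. The ATP synthase subunits Atp5a1 and Atp5b had folds of 1.45 and 1.18. Of 65 tested cytosolic ribosomal protein genes, 60 had a positive fold, 4 (6.15%) were 4-fold higher, where 2.85% of all genes were, and none lower, with a median of 0.77. Rps29 stood at 773 against 126 CPM, and Rps21 and Rpl32 had folds of 1.84 and 1.34. Both groups are of short messengers, with median transcripts of 1232 and 1128 bases. All genes of 1 to 2 kb had a median fold of 0.92 against P15, and 7.36% of them were 4-fold higher. Many genes of both lists have processed pseudogenes. The methods count only reads that map without ambiguity, and the part of pseudogenes in these folds was not tested.

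Length ordered the folds of all genes. The median log2 fold of patched over P15 cells was 1.28 for genes whose longest annotated transcript is under 1 kb, 0.92 at 1 to 2 kb, 0.42 at 2 to 3 kb, 0.05 at 3 to 4 kb, -0.48 at 4 to 6 kb, -0.99 at 6 to 8 kb and -1.41 over 8 kb. In the shortest class 19.4% of genes were 4-fold higher and 0.334% lower, and in the longest class none of 647 was higher and 22.4% were lower. The Spearman correlation between length and fold was -0.61 over 9041 genes against P15 and -0.56 over 10104 genes against P30. Between the P30 and P15 sorted cells it was 0.09. These correlations are across genes, which are not independent replicates. The median transcript of the 263 higher genes was 1774 bases, of the 362 lower genes 7171 bases, and of all tested genes 3651 bases. Reln (11699 bases), Ndnf (10101 bases), Vcan (12427 bases) and Lrp1b (16294 bases) are long, whereas Vip (2532 bases) is not, and among the higher genes Mbp (4797 bases) falls in a class whose median was below 0.

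**Figure D5:**
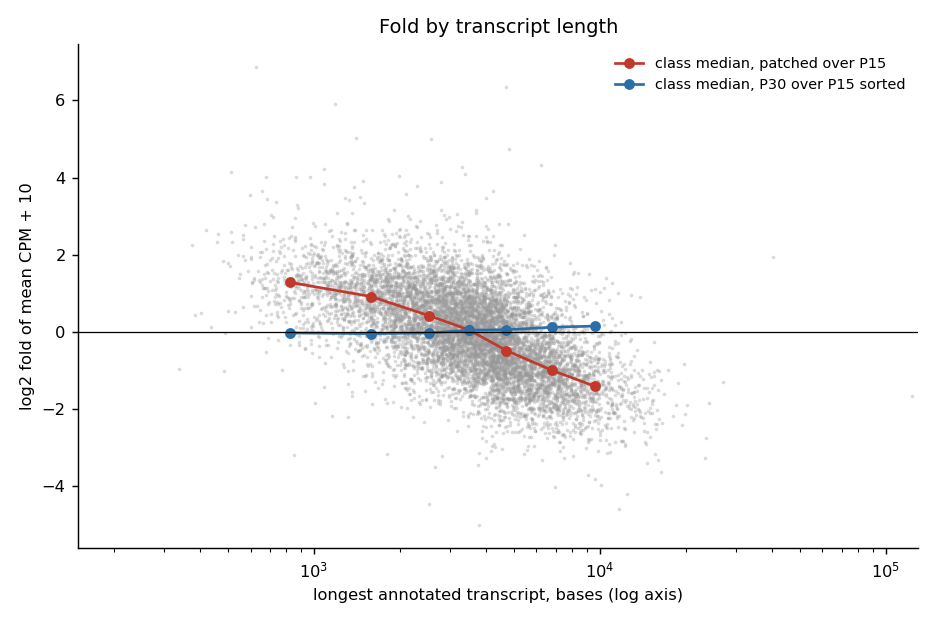
Log2 fold of mean CPM + 10, patched over P15, against the longest annotated transcript in bases (log axis), 1 grey point per gene. The joined points are class medians, which run from 1.28 under 1 kb to -1.41 over 8 kb for patched over P15 and from -0.03 to 0.15 for P30 over P15 sorted cells.

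A list of long noncoding RNAs, chosen as nuclear-retained without a check of where each member is found, was mostly lower in the patched cells. Meg3 stood at 226, 1403 and 12345 CPM in the lowest, median and highest patched cell and at 5477, 15525 and 29811 CPM at P15, and 45 of 47 patched cells lay below every P15 cell. Its folds were -2.91 and -3.30, and summing counts over cells took it under 4-fold against P15. Snhg11, which is protein-coding in the annotation used, was at -1.64 and -1.84 and Gas5 at -0.13 and -0.64, whereas Pantr1 was at 1.47 and 1.95. Of 15 tested members 6 (40%) were 4-fold lower against P30, where 4.87% of all genes were, among them Kcnq1ot1 (-3.73) and Rian (-3.48). Malat1, the most abundant of them, went the other way, at 2268, 24107 and 75189 CPM in the patched and 3314, 11642 and 22511 CPM in the P30 cells, a fold of 1.07, with 25 patched cells above every P30 cell. It has no P15 row. The list medians were -0.89 over 4 genes against P15 and -1.84 against P30, beside -0.48 for genes of the same length class.

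Messengers carried into axons and dendrites had a lower summed level in most patched cells. The sum was 1401, 5220 and 13991 CPM in the lowest, median and highest patched cell and 4733, 8957 and 17310 CPM at P15, with 43 of 47 patched cells below the P15 median and 42 below the P30 median. Of 22 tested, 2 (9.09%) were 4-fold higher against P15 and 2 (9.09%) lower, where 2.85% and 3.93% of all genes were. The list median of -0.48 lay under the -0.03 of all genes, equalled that of genes of 4 to 6 kb, and turned to 0.41 with counts summed over cells. Actb, Kif5c, Map1b and Cplx1, the most abundant members, had folds of -1.17, -1.20, -0.08 and 0.60. The neurofilaments Nefl (161 against 0.0355 CPM) and Nefm (140 against 6.59 CPM), which are made strongly by large projection neurons, were higher by 4.09 and 3.17, and the scaffolds Bsn and Ank2 were lower. Of 15 tested genes for secreted factors and the processing of neuropeptides, only Pam, which amidates peptides, was 4-fold apart against P15 (-2.10). That is 6.67% lower and none higher, where 3.93% and 2.85% of all genes were, and 15 genes are too few to tell. Carboxypeptidase E (Cpe), the upstream partner of Pam, was at 2256 CPM in the patched and 1326 CPM in the P15 cells. The granins and their chaperone, Scg2, Chgb and Scg5, had folds of -0.51, 0.89 and 0.26.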

How the data were processed

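The authors deposited counts per gene and cell, 1 library per cell. According to the methods and the submitters' processing notes, reads were aligned to GRCm38 (mm10) with STAR and counted by UMI with UMI-tools, exonic reads only, after sorted cells with few counts or a high mitochondrial share were left out. The methods call the sequencing procedure of the patched cells identical, without naming UMIs for them again. Versions are not given in the sources used here. Each cell's counts were scaled here to CPM over the rows that 2 tables share, with 0 columns left unused. The methods limit patched cells to under 15% mitochondrial reads. All deposited patched cells were kept, including 3 above 15% of counts, without which 284 genes were higher and 427 lower against P15 and 349 and 562 against P30, and no doublet caller was run. With 1 sample per collection, no test was made. Genes at 10 CPM or more in the higher collection were compared, and a gene was called at 4-fold. Levels are means over cells and exact Clopper-Pearson 95% intervals cover counting error only. Transcript lengths and positions come from GENCODE M21 on GRCm38. Named were the 4 most abundant members of each of 16 lists, the 12 highest and 12 lowest genes over both comparisons (50 CPM or more, counted in at least 50% of cells of the higher collection), fixed markers, and other list members called or defining a cell type, which were chosen after their values were seen. Of these, 3 of the 12 highest genes and some list members are not reported here. The members and lists were chosen with earlier results of these data known. Scripts were tested on simulated data and used Python 3.11.15, numpy 2.4.6, pandas 2.3.3, scipy 1.17.1 and matplotlib 3.10.9. Alternatives were other measures of level, pseudocounts, filters, totals, depths, ages, labels, plate rows and cells, and each of the 8 patched series left out in turn.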

Additional observations from a re-analysis of the deposited data

How the results depend on the processing

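No paired analysis was possible because no test was made and replicate numbers only name cells. Against P15 the 263 higher and 362 lower genes became 1746 and 1944 at 2-fold, 457 and 627 with Dock5+NGCs alone, 802 and 927 with 1 CPM added and 29 and 32 with 100 CPM added. With the mean of log2 CPM they were 1557 and 563, with the median CPM 1450 were higher, with counts summed over cells 163 were lower, and with tdTOM- Lsp1 cells 514 were higher. Against P30 the 335 and 503 became 2033 and 2458 at 2-fold, 956 and 1458 with 1 CPM, 42 and 32 with 100 CPM, 191 and 260 with summed counts, 2225 and 219 with the median, and 531 and 971 with patched cells of P20 to P25. The mean of log2 CPM gave 2792 higher and Dock5+NGCs alone 767 lower. The 26 genes apart between P30 and P15 became 1035 at 2-fold, 463 with 1 CPM, 0 with 100 CPM, 12 with summed counts, 258 with log2 means, 407 with medians, 15 without the highest cell of each gene, 103 and 247 with Dock5+NGCs or Lsp1+NGCs alone and 176 and 165 with plate rows 1 to 20 or 21 to 40. At 30000 counts a median of 3980 genes was detected in patched, 3254 in P15 and 2498 in P30 cells. Leaving out 1 patched series gave 265 to 287 higher and 340 to 434 lower genes against P15, and 326 to 362 and 492 to 577 against P30. The cause of these shifts was not tested.

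No named gene that was 4-fold apart, and no list median past 4-fold, turned its direction under an alternative. Against P15 the median of the oligodendrocyte list ranged from 0.65 to 5.22 and that of the microglia list from 0.46 to 5.24. Of 32 list medians, 21 kept 1 sign under every alternative and the other 11 were those of the secreted, endothelial, glutamatergic, heat shock, immediate early, neurite and other interneuron lists, 4 of which changed sign against both sorted collections. Whole tdTOM+ sorts and tdTOM- cells were set against the patched cells at P15 alone. Patched cells at 3% mitochondrial counts or less, and totals without glial, vascular and blood rows (273 higher and 354 lower against P15), were added after the data were seen.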

Other observations

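The patched table has 49585 rows, of which 26634 are in neither sorted table. They held 0.0824% to 0.698% of the counts of a patched cell. Of the 17465 P15 rows, 5756 had no count in any of the 69 P15 NGCs, and of the 17465 P30 rows 1278 had none in the 111 P30 NGCs.

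Among genes counted in 5% to 10% of cells, a cell with a count held on average 3.48 counts in the patched, 6.76 in the P15 and 10.4 in the P30 cells after thinning to 60000 counts.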
